A study of Mus musculus with 2 samples.

Results

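The haemoglobin transcripts of the fetal mouse intestine were described through 7 globin genes, which are the alpha-type genes Hba-a1, Hba-a2 and Hba-x and the beta-type genes Hbb-bs, Hbb-bt, Hbb-bh1 and Hbb-y. They were chosen by name, all 7 were present among the 52636 genes counted, and all 7 had at least 1 transcript in each library. Their counts were read separately in barcodes with over 50% of their transcripts from these genes, called globin-dominated here, and in all other barcodes. Of 1014 barcodes in the Casp8-mutant library 123 were globin-dominated, and of 1478 barcodes in the Mlkl-null library 52 were.

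The libraries came from intestines of embryos at day E18.5 on the C57BL/6 background, with 1 library per genotype, and the labels do not say how many embryos went into each. The Casp8-mutant genotype was Casp8 C362A/C362A Mlkl -/-, an allele that removes the catalytic cysteine of caspase-8 on top of the loss of Mlkl, the pore-forming executor of necroptosis. The Mlkl-null genotype was Mlkl -/- with no Casp8 change given, so both groups lacked Mlkl. Papain (0.5 mL, 30 min) was used to free the cells, about 10000 of which went into each library of the 10x Chromium 3' v2 kit, which counts transcript ends with unique molecular identifiers (UMIs). The labels give the tissue once as whole intestine and once as small intestine. With 1 library per genotype there was no test and no p-value, and no difference between genotypes has a replicate check. All intervals are 95% intervals that cover counting error only.

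Haemoglobin joins alpha-type and beta-type chains in equal number, and red cell precursors make it in great amounts. In the mouse the first, primitive red cells arise in the yolk sac and use the zeta chain of Hba-x with the embryonic beta-type chains of Hbb-y and Hbb-bh1. Definitive red cells, made in the fetal liver and later in bone marrow, use the adult alpha chains of Hba-a1 and Hba-a2 with the adult beta chains of Hbb-bs and Hbb-bt. Reticulocytes and nucleated precursors still hold globin RNA, and RNA released from broken cells can enter any droplet of a library.

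The alpha-type genes lie together on chromosome 11, in the order Hba-x (mm10, positions 32276400 to 32278116), Hba-a1 (32283511 to 32284465) and Hba-a2 (32296489 to 32297298), all on the plus strand. The beta-type genes lie on chromosome 7 on the minus strand, with Hbb-bt at 103812524 to 103813996, Hbb-bs at 103826534 to 103828096, Hbb-bh1 at 103841637 to 103843164 and Hbb-y at 103851749 to 103853216. Because a 3' kit reads transcript ends, the last 90 coding bases show how well reads can tell the members apart. They are printed 5′ to 3′ in the sense of the transcript, stop codon included, from the GENCODE M21 transcripts. Capitals mark each base that differs from Hba-a1 among the alpha-type genes and from Hbb-bs among the beta-type genes.
Hba-a1: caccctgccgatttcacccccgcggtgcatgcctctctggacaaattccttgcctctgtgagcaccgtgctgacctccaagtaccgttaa
Hba-a2: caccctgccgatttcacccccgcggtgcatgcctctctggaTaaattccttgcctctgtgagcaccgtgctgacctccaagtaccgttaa
Hba-x: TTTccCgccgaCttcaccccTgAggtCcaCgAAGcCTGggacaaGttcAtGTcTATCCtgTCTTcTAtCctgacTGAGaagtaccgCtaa
Hbb-bs: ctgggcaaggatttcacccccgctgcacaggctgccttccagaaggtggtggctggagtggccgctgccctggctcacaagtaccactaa
Hbb-bt: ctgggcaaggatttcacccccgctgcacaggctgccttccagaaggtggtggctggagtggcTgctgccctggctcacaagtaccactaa
Hbb-bh1: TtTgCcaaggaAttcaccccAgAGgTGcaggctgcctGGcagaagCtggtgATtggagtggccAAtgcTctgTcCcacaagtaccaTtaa
Hbb-y: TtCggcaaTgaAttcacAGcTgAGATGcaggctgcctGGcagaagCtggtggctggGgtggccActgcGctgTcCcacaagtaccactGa

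Hba-a2 differed from Hba-a1 at 1 of these 90 bases, and Hbb-bt from Hbb-bs also at 1. Hba-x differed from Hba-a1 at 36 bases, Hbb-bh1 from Hbb-bs at 20 and Hbb-y from Hbb-bs at 21. Over whole transcripts, 359 of 610 windows of 90 bases in Hba-a1 were also found in Hba-a2, and 341 of 539 windows in Hbb-bs were also found in Hbb-bt. Hba-x, Hbb-bh1 and Hbb-y shared 0 such windows with another globin gene, and of windows of 30 bases Hba-x and Hbb-y shared 0 and Hbb-bh1 shared 1 of 584, with Hbb-bh2. Reads of the near-identical pairs could therefore be split between their members in ways the deposited counts do not show, so results that turn on Hba-a1 against Hba-a2 or on Hbb-bs against Hbb-bt are uncertain and the sum of each pair is used beside them.

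The Casp8-mutant library held 2804929 UMIs and the Mlkl-null library 6290008. Median UMIs per barcode were 1797.5 and 3654 in the Casp8-mutant and the Mlkl-null library, so depth differed between the genotypes throughout. No barcode sequence of a globin-dominated barcode occurred in both libraries, and 2 barcode sequences of other barcodes did. Casp8 had 235 UMIs in the Casp8-mutant and 401 in the Mlkl-null library, and Mlkl 13 in the Casp8-mutant and 1 in the Mlkl-null library, but counts of transcript ends check neither a substitution nor a deletion elsewhere in a gene.

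Globin-dominated barcodes made up 12.1% of the Casp8-mutant library (10.2 to 14.3) and 3.52% of the Mlkl-null library (2.64 to 4.59). These shares follow from the rule and from which barcodes were deposited. Among barcodes with at least 500 detected genes the order of the libraries was the other way round, with 2 of 875 globin-dominated in the Casp8-mutant library, 0.229% (0.0277 to 0.823), and 14 of 1439 in the Mlkl-null library, 0.973% (0.533 to 1.63). Between 40% and 60% globin there were 19 Casp8-mutant and 5 Mlkl-null barcodes. In the Casp8-mutant library the lowest shares inside the rule were 50.5% and 50.6% and the highest outside it 47.5% and 46.9%. In the Mlkl-null library the lowest inside were 59.8% and 62.1% and the highest outside 48.6% and 46.6%. Between 10% and 50% globin there were 29 Casp8-mutant and 7 Mlkl-null barcodes, while 862 and 1419 had under 10%. The globin-dominated barcodes held 77.2% of all globin UMIs of the Casp8-mutant library and 81.6% of those of the Mlkl-null library. They were shallow and poor in genes, with medians of 1364 UMIs and 231 genes in the Casp8-mutant library and of 2733.5 UMIs and 365 genes in the Mlkl-null library. As a share of all UMIs, globin included, mitochondrial transcripts had medians of 0.0835% in Casp8-mutant and 0.136% in Mlkl-null dominated barcodes. In the other barcodes the medians were 0.535% and 1.11%. Globin filled a median of 75.6% of UMIs in Casp8-mutant and 84.0% in Mlkl-null dominated barcodes, so the rule itself lowers this share there. The mitochondrial share of non-globin UMIs was not computed.

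**Figure D1:**
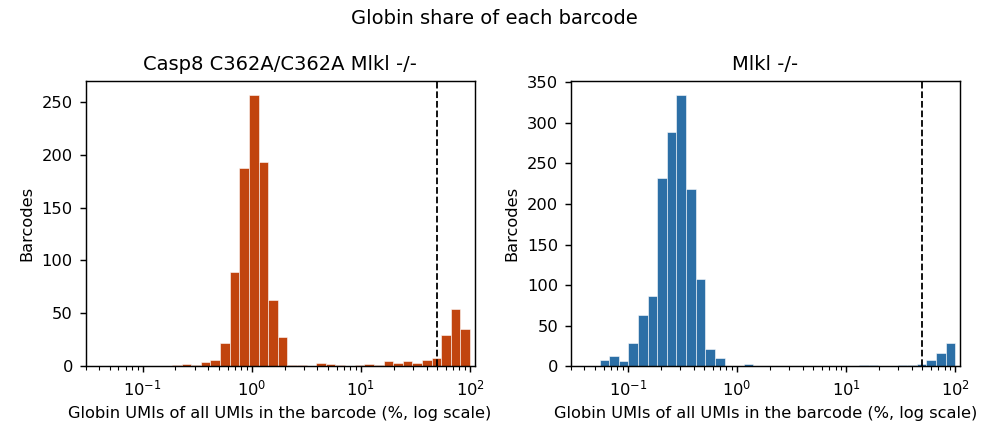
Number of barcodes (vertical axis) by the share of their UMIs from the 7 globin genes (horizontal axis, percent, log scale) in the Casp8-mutant (left) and Mlkl-null (right) library, with the dashed line at 50%. Most barcodes sit near the median of the other barcodes, 1.05% in the Casp8-mutant and 0.277% in the Mlkl-null library, and barcodes run on across the line, with 19 Casp8-mutant and 5 Mlkl-null barcodes between 40% and 60% (the 1 Mlkl-null barcode with no globin UMI is not drawn).

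Transcripts known from red cells ran together with globin in the dominated barcodes of both libraries. These levels are per 1 M UMIs of genes other than the 7 globins, and a gene was counted as higher with at least a 2-fold ratio, an interval that left out 1 and at least 20 UMIs over both classes. Among all genes with that many UMIs, 4.88% were higher and 5.92% lower in globin-dominated than in other barcodes of the Casp8-mutant library, and 2.96% were higher and 2.36% lower in the Mlkl-null library. A listed gene that reached the minimum through its counts in dominated barcodes had to be higher there, so the counts over listed genes are a description. Of the 8 haem synthesis genes, 7 were higher in each library. Alas2, the erythroid enzyme that starts haem synthesis, was at 4198 in globin-dominated and 51.5 in other barcodes of the Casp8-mutant library, and at 4961 and 13.2 in the Mlkl-null library. Fech, which inserts the iron, was at 1365 against 40.3 in the Casp8-mutant library and at 1751 against 42.3 in the Mlkl-null library. Uros, another enzyme of the pathway, had 1 and 2 UMIs in the dominated barcodes of the Casp8-mutant and the Mlkl-null library and was not called.

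Of the 15 genes of the red cell membrane and skeleton, 7 had enough UMIs in the Casp8-mutant library and all 7 were higher, while 4 of 6 were higher in the Mlkl-null library. Slc4a1, the band 3 anion exchanger, was at 972 in globin-dominated and 16.7 in other barcodes of the Casp8-mutant library, and at 551 and 2.61 in the Mlkl-null library. Among enzymes and factors of late red cell maturation, 15 of 17 were higher in the Casp8-mutant and 13 of 17 in the Mlkl-null library. Bpgm, which makes the haemoglobin ligand 2,3-bisphosphoglycerate, was at 2357 against 48.0 in the Casp8-mutant library and at 4150 against 59.3 in the Mlkl-null library. Pklr and Tspan8 were called in neither library. Of the iron handling genes, 5 of 7 were higher in the Casp8-mutant and 4 of 7 in the Mlkl-null library. The mitochondrial iron importer Slc25a37 was at 1489 against 40.3 in the Casp8-mutant library and at 1492 against 21.9 in the Mlkl-null library.

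Erythroid transcription factors were thinly counted, with 44 UMIs over 12 genes in the dominated barcodes of the Casp8-mutant library and 32 in those of the Mlkl-null library. Klf1, the activator of adult beta-globin, had 6 UMIs in the dominated barcodes of each library, a ratio to other barcodes of 22.9 (7.21 to 63.4) in the Casp8-mutant and 70.0 (22.6 to 186) in the Mlkl-null library. Bcl11a, which represses embryonic beta-type globins, and Myb had 0 UMIs in the dominated barcodes of both libraries. Of the genes that clear free haemoglobin and haem, 2 of 8 were higher in the Casp8-mutant and 2 of 6 in the Mlkl-null library, in each case the haem breakdown enzyme gene Blvrb and the haem transporter gene Slc48a1. The scavenger genes Hp, Hpx and Cd163 had at most 1 UMI in the dominated barcodes of either library.

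Markers of other cell types were present in the globin-dominated barcodes. The 20 epithelial markers summed to 13917 per 1 M UMIs of other genes in dominated barcodes and 16033 in the other barcodes of the Casp8-mutant library, and to 30057 and 44349 in the Mlkl-null library. The 9 granulocyte markers summed to 16853 against 5477 in the Casp8-mutant library, with 6 of 9 higher and none at 0, and to 97.3 against 59.6 in the Mlkl-null library, with 7 of 9 at 0. Markers of endothelial cells and glia had 1 UMI each in the dominated barcodes of the Casp8-mutant library and 0 in those of the Mlkl-null library. In the Casp8-mutant library 1 UMI was a level of 20.7, against 25.6 (endothelial) and 29.8 (glia) in the other barcodes. The other barcodes of the Mlkl-null library were at 41.2 and 80.6. Counts this small do not show a lower level in dominated barcodes. The part of these cell type markers in the results was not tested, and no doublet caller was run.

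Within the globin-dominated barcodes the adult beta gene Hbb-bs was the most abundant member in both libraries, and the alpha-type genes took a larger part in the Casp8-mutant library. Alpha-type genes gave 48.9% of globin UMIs in the Casp8-mutant library (48.6 to 49.2) and 34.7% in the Mlkl-null library (34.4 to 34.9). Hbb-bs gave 39.5% in the Casp8-mutant and 54.1% in the Mlkl-null library, a ratio of 0.730 (0.722 to 0.739). Hba-a1 gave 21.9% in the Casp8-mutant and 15.4% in the Mlkl-null library, and Hba-a2 16.6% in the Casp8-mutant and 12.003% in the Mlkl-null library. Hba-x gave 10.4% in the Casp8-mutant and 7.23% in the Mlkl-null library, a ratio of 1.43 (1.39 to 1.47). Hbb-bt differed least, with 11.4% in the Casp8-mutant and 11.1% in the Mlkl-null library, a ratio of 1.03 (1.006 to 1.05).

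The embryonic beta-type genes were rare. Hbb-bh1 had 114 UMIs, 0.0848% of globin UMIs (0.0699 to 0.102), in the Casp8-mutant and 68 UMIs, 0.0598% (0.0464 to 0.0758), in the Mlkl-null library. Hbb-y had 69 UMIs, 0.0513% (0.0399 to 0.0649), in the Casp8-mutant and 65 UMIs, 0.0572% (0.0441 to 0.0728), in the Mlkl-null library. The interval of the ratio of these shares included 1 for Hbb-y (0.631 to 1.28) and left it out for Hbb-bh1 (1.04 to 1.94), but for Hbb-bh1 it included 1 when taken over all UMIs (0.973 to 1.82).

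**Figure D2:**
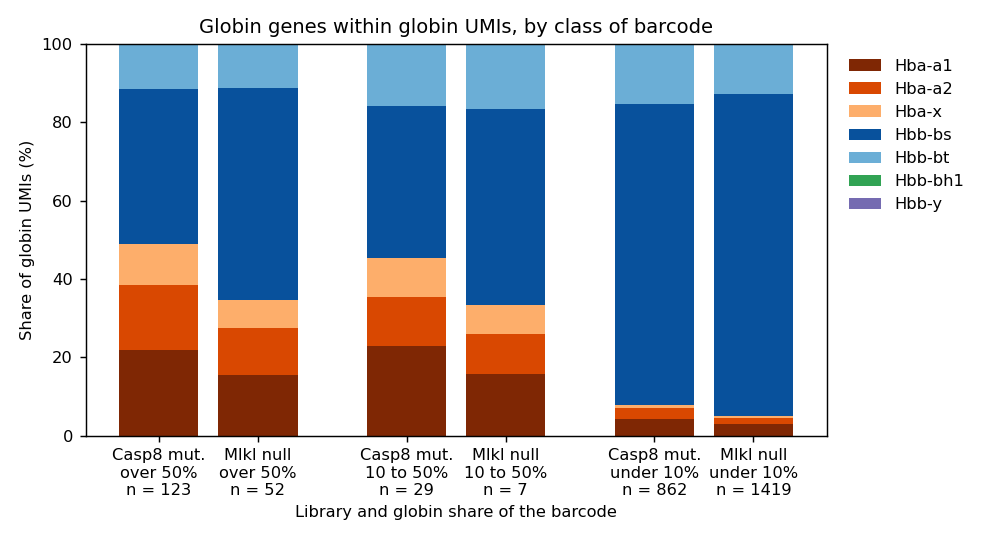
Stacked bars give the percent of globin UMIs (vertical axis) from each of the 7 genes in barcodes with over 50%, 10 to 50% and under 10% globin, with the Casp8-mutant bar left of the Mlkl-null bar in each pair and n the number of barcodes. Alpha-type genes (red to orange, at the bottom) fill 48.9% (Casp8-mutant) and 34.7% (Mlkl-null) of the bars over 50% but 7.75% (Casp8-mutant) and 4.995% (Mlkl-null) of those under 10%, and Hbb-bh1 and Hbb-y are too rare to be seen.

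The difference between the libraries was also seen barcode by barcode. The alpha-type share per globin-dominated barcode ran from 37.2% to 72.1% with a median of 48.7% in the Casp8-mutant library, and from 21.6% to 67.2% with a median of 34.6% in the Mlkl-null library. The 10th to 90th percentiles, 43.7% to 54.0% in the Casp8-mutant and 28.8% to 38.9% in the Mlkl-null library, were apart, although the full ranges overlapped. Barcodes of 1 library share its tissue and its preparation and are not replicates of a genotype. At shares of 50 to 80% globin, the alpha-type share was 48.98% in 80 Casp8-mutant and 37.0% in 23 Mlkl-null barcodes, and over 80% globin it was 48.8% in 43 Casp8-mutant and 33.1% in 29 Mlkl-null barcodes. Depth differed beside it, since a dominated barcode held a median of 1045 globin UMIs in the Casp8-mutant and 2054 in the Mlkl-null library. The difference was within counting error in barcodes with at least 500 detected genes, where the alpha-type share was 37.9% (35.6 to 40.3) in the Casp8-mutant and 36.2% (35.6 to 36.7) in the Mlkl-null library. Only 2 of the 123 Casp8-mutant barcodes, and 14 of the 52 Mlkl-null barcodes, had that many genes. The part of depth and gene number in the alpha-type share was not tested.

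In counts per barcode, Hba-a1 had a median of 225 UMIs (range 138 to 440) in the Casp8-mutant and 325.5 (155 to 608) in the Mlkl-null library. Hba-a2 had 171 (78 to 358) in the Casp8-mutant and 234.5 (118 to 535) in the Mlkl-null library. Hbb-bs had 414 (211 to 1014) in the Casp8-mutant and 1171.5 (358 to 2661) in the Mlkl-null library. The medians of all 5 abundant members were lower in the shallower Casp8-mutant library, and that of Hbb-bs was the furthest apart. Hbb-bt had 118 (38 to 274) in the Casp8-mutant and 231.5 (66 to 607) in the Mlkl-null library, and Hba-x 105 (55 to 231) in the Casp8-mutant and 147.5 (68 to 337) in the Mlkl-null library.

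The embryonic to adult ratio differed between the alpha-type and the beta-type genes far more than between the genotypes. Over all 7 genes there were 11.7 embryonic UMIs per 100 adult UMIs in the dominated barcodes of the Casp8-mutant library (11.5 to 11.9) and 7.93 in those of the Mlkl-null library (7.76 to 8.11). Among alpha-type genes alone there were 26.9 Hba-x UMIs per 100 of Hba-a1 and Hba-a2 in the Casp8-mutant library (26.4 to 27.4) and 26.4 in the Mlkl-null library (25.7 to 27.0), intervals that overlap. Among beta-type genes alone there were 0.267 embryonic UMIs per 100 of Hbb-bs and Hbb-bt in the Casp8-mutant library (0.230 to 0.309) and 0.179 in the Mlkl-null library (0.150 to 0.213). The ratio over all 7 genes is thus set by Hba-x, and its difference between the genotypes goes with the alpha-type share. Hba-x, which shares no 30-base window with another globin transcript, supplied 13942 of 14125 embryonic UMIs in the Casp8-mutant and 8227 of 8360 in the Mlkl-null library.

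Hba-x kept close to Hba-a1 in each dominated barcode. The number of Hba-x UMIs per 100 Hba-a1 UMIs had a median of 46.9 (36.5 to 55.6) in 123 Casp8-mutant barcodes and 46.3 (40.3 to 55.4) in 52 Mlkl-null barcodes. All dominated barcodes had Hba-x, with at least 55 UMIs in the Casp8-mutant and 68 in the Mlkl-null library. Hbb-y was found in 54 of 123 Casp8-mutant and 29 of 52 Mlkl-null barcodes, with medians of 0 and 1 UMIs. Hbb-bh1 was found in 68 of 123 Casp8-mutant and 34 of 52 Mlkl-null barcodes, with a median of 1 UMI in each. Across dominated barcodes, which share a library and differ in depth, Pearson's r of Hba-x with Hba-a1 was 0.971 in the Casp8-mutant (n = 123) and 0.980 in the Mlkl-null library (n = 52). For Hba-x with Hbb-y it was 0.160 in the Casp8-mutant and 0.0666 in the Mlkl-null library. For Hba-a1 with Hbb-bs it was 0.740 in the Casp8-mutant and 0.693 in the Mlkl-null library, and over all 6 pairs of an alpha-type with an adult beta gene it ran from 0.409 to 0.756 in the Casp8-mutant and from 0.637 to 0.776 in the Mlkl-null library. Over the 3 pairs of alpha-type genes it ran from 0.887 to 0.971 in the Casp8-mutant and from 0.931 to 0.980 in the Mlkl-null library, above every alpha-beta pair of the same library. The adult beta pair did not do so. For Hbb-bs with Hbb-bt it was 0.600 in the Casp8-mutant library, within the range of the alpha-beta pairs. In the Mlkl-null library it was 0.587, below all of them.

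**Figure D3:**
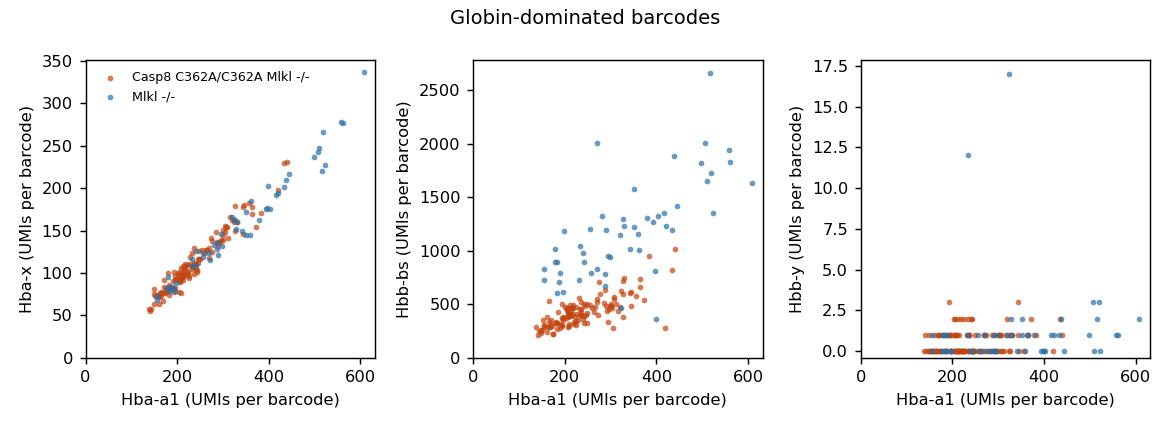
Each point is 1 globin-dominated barcode (orange Casp8-mutant, blue Mlkl-null), with Hba-a1 UMIs on the horizontal axis and Hba-x, Hbb-bs or Hbb-y UMIs on the vertical axes from left to right. Hba-x follows Hba-a1 along 1 line in both libraries, Hbb-bs mostly lies higher at the same Hba-a1 in the Mlkl-null library, and Hbb-y stays at 3 UMIs or fewer except for 2 Mlkl-null barcodes with 17 and 12.

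A pair of Mlkl-null barcodes, singled out after their values were seen, held 29 of the 65 Hbb-y UMIs. The barcode with 17 Hbb-y UMIs had 1260 globin UMIs, of which 163 were Hba-x and 0 Hbb-bh1, with an alpha-type share of 54.2% and a Hba-x share of 12.9%, both the second highest of its library. The barcode with 12 had 1795 globin UMIs, of which 108 were Hba-x and 1 Hbb-bh1, and an alpha-type share of 31.1%. Among the other 50 dominated barcodes of that library Hbb-y had 36 UMIs in all and at most 3 in any barcode. In the Casp8-mutant library the highest Hbb-y count was 3, in barcodes with 178 and 78 Hba-x UMIs. The barcodes richest in Hbb-y thus differed from each other in their alpha-type share, and neither was rich in Hbb-bh1.

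The balance of the adult beta genes varied with the globin share of the barcode in both libraries. Hbb-bt per 100 Hbb-bs UMIs had a median of 29.9 (13.6 to 52.6) over Casp8-mutant and 17.4 (9.95 to 44.9) over Mlkl-null dominated barcodes. Hbb-bt was 28.7% of adult beta UMIs at 10 to 50% globin in the Casp8-mutant library, 24.8% at 50 to 80% and 19.1% over 80%. In the Mlkl-null library the same shares were 24.7%, 22.6% and 13.6%. This order did not run on under 10% globin, where Hbb-bt was 16.7% in the Casp8-mutant and 13.3% in the Mlkl-null library. From 10 to 50% globin to the dominated barcodes, Hba-a2 per 100 Hba-a1 UMIs went the other way. It was at 54.9 and 75.6 in the Casp8-mutant library and at 65.0 and 77.9 in the Mlkl-null library. Under 10% globin it was 62.4 in the Casp8-mutant and 52.4 in the Mlkl-null library. The split of reads within each near-identical pair limits what these ratios measure.

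The barcodes with 10 to 50% globin had alpha-type and Hba-x shares near those of the dominated ones, while Hba-a2 and Hbb-bt differed more. Alpha-type genes gave 45.4% of their globin UMIs in the Casp8-mutant (44.5 to 46.2) and 33.4% in the Mlkl-null library (32.4 to 34.4). Hba-x gave 9.94% in the Casp8-mutant and 7.46% in the Mlkl-null library. When barcodes outside the dominated class were clustered without globin genes, 21 of the 29 Casp8-mutant and 4 of the 7 Mlkl-null barcodes fell in an erythroid-like cluster with Car2, Hemgn and Alas2 among its leading genes. The others fell in epithelial-like, myeloid-like, granulocyte-like and enteric neuron-like clusters. Whether those barcodes held a red cell beside another cell was not tested. These names hold at a clustering resolution of 1. At a resolution of 0.5 no cluster was named erythroid-like. There 23 of the 29 Casp8-mutant and 4 of the 7 Mlkl-null barcodes fell in a cluster named granulocyte-like.

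Outside the globin-dominated barcodes globin RNA was found nearly everywhere, at a higher level in the Casp8-mutant library. In the other barcodes the 7 genes summed to 15181 counts per 1 M UMIs (CPM) in the Casp8-mutant and 4184 CPM in the Mlkl-null library, a ratio of 3.63 (3.57 to 3.69). With barcodes of 10% globin or more set aside, the levels were 10394 CPM in 862 Casp8-mutant and 2742 CPM in 1419 Mlkl-null barcodes, a ratio of 3.79 (3.72 to 3.86). Per barcode this was a median of 22 globin UMIs (range 3 to 641) in the Casp8-mutant and 11 (0 to 119) in the Mlkl-null library. The ratio of the libraries in globin UMIs per barcode is smaller than in CPM because the Casp8-mutant barcodes were shallower. Across genes with enough UMIs in the other barcodes, 22.1% were at least 1.5-fold higher and 27.3% at least 1.5-fold lower in the Casp8-mutant than in the Mlkl-null library. All 6 globin genes with at least 20 UMIs there were higher by that measure, and Hbb-y had 18 UMIs in all.

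The excess was not the same for every member. Under 10% globin, Hbb-bs was at 7985 CPM in the Casp8-mutant and 2257 CPM in the Mlkl-null library, a ratio of 3.54 (3.46 to 3.62). Hbb-bt was at 1600 CPM in the Casp8-mutant and 346 CPM in the Mlkl-null library, a ratio of 4.63 (4.39 to 4.88). The alpha-type genes were further apart, at ratios of 5.45 (4.91 to 6.06) for Hba-a1, 6.50 (5.64 to 7.50) for Hba-a2 and 6.82 (5.07 to 9.28) for Hba-x. Hba-x was at 68.0 CPM in the Casp8-mutant and 9.97 CPM in the Mlkl-null library. In the main peak of globin shares alone, without 12 Casp8-mutant barcodes over 2% and 2 Mlkl-null barcodes over 1%, Hba-x was at 31.5 CPM in the Casp8-mutant and 6.06 CPM in the Mlkl-null library, a ratio of 5.20 (3.48 to 7.91). There the ratios of Hba-a1 (5.16) and Hba-a2 (5.56) were about as large, and that of Hbb-bs was 3.46. Under 10% globin, Hbb-bh1 had 7 and 11 UMIs and Hbb-y 2 and 6 UMIs in the Casp8-mutant and the Mlkl-null library, and the intervals of both ratios included 1.

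Globin UMIs in these barcodes followed depth. Spearman's rho between a barcode's globin UMIs and its UMIs of other genes was 0.877 over 862 Casp8-mutant and 0.797 over 1419 Mlkl-null barcodes. In 4 equal parts of the barcodes by depth, shallowest first, the globin level was 11586, 11451, 10912 and 9709 CPM in the Casp8-mutant and 2933, 2949, 2861 and 2548 CPM in the Mlkl-null library. After thinning every other barcode to 1000 UMIs, which left out 20 Casp8-mutant barcodes, a globin UMI was found in 100% of 871 Casp8-mutant barcodes (99.6 to 100) and 93.4% of 1426 Mlkl-null barcodes (92.0 to 94.6). Without thinning the shares were 100% in the Casp8-mutant and 99.9% in the Mlkl-null library. Thinned, Hbb-bs was found in 100% of Casp8-mutant and 90.04% of Mlkl-null barcodes, and Hba-x in 6.77% of Casp8-mutant and 0.771% of Mlkl-null barcodes. The source of these globin UMIs was not tested, and none of these shares is read as expression by the cells.

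In barcodes under 10% globin the level varied little between groups of clusters with at least 10 such barcodes. It ran from 9071 to 11845 CPM over 8 groups of clusters in the Casp8-mutant library and from 2447 to 3167 CPM over 6 groups in the Mlkl-null library. Epithelial-like barcodes were at 10358 CPM in the Casp8-mutant and 2737 CPM in the Mlkl-null library, and myeloid-like barcodes at 11845 CPM in the Casp8-mutant and 3060 CPM in the Mlkl-null library. Smooth muscle-like barcodes were at 11808 CPM in the Casp8-mutant and 2447 CPM in the Mlkl-null library. Under this cut each group of the Casp8-mutant library lay above all groups of the Mlkl-null library. The cut is on globin itself, and some levels rose without it. In the Casp8-mutant library the granulocyte-like cluster was then at 32600 CPM, with 2 of 25 barcodes over 10% globin. Its myeloid-like cluster was at 17855 CPM, with 3 of 112. The enteric neuron-like cluster of the Mlkl-null library was at 18995 CPM, with 1 of 49.

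**Figure D4:**
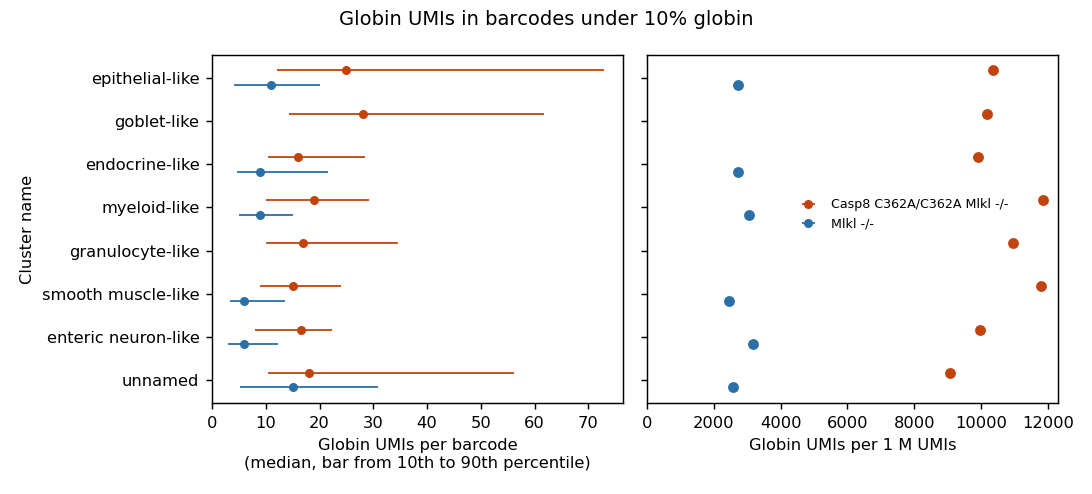
Globin UMIs in barcodes under 10% globin by cluster name, as the median per barcode with a bar from the 10th to the 90th percentile (left) and as counts per 1 M UMIs (right), orange for the Casp8-mutant and blue for the Mlkl-null library. All 8 Casp8-mutant groups lie between 9071 and 11845 CPM and all 6 Mlkl-null groups between 2447 and 3167 CPM. Groups of fewer than 10 barcodes are not drawn.

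The mixture of globins outside the globin-dominated barcodes was not that inside them. Alpha-type genes gave 48.9% of globin UMIs in dominated barcodes and 20.1% (19.7 to 20.5) in all other barcodes of the Casp8-mutant library, and 34.7% and 14.9% (14.4 to 15.3) in the Mlkl-null library. Hbb-bs gave 64.4% of globin UMIs in all other barcodes of the Casp8-mutant and 71.1% in those of the Mlkl-null library. The barcodes of 10 to 50% globin had alpha-type shares near the dominated ones. They supplied 13039 of 39806 globin UMIs of the other barcodes in the Casp8-mutant and 8937 of 25713 in the Mlkl-null library. Without them the mixtures were further apart. Alpha-type genes gave 48.9% of globin UMIs in dominated barcodes of the Casp8-mutant library, against 7.75% (7.43 to 8.08) in its barcodes under 10% globin, a ratio of 6.31 (6.04 to 6.59). In the Mlkl-null library they gave 34.7% in dominated barcodes, against 4.995% (4.67 to 5.34) under 10% globin, a ratio of 6.94 (6.48 to 7.44). Under 10% globin Hbb-bs gave 76.8% of globin UMIs in the Casp8-mutant and 82.3% in the Mlkl-null library. In groups of clusters with at least 10 such barcodes, the alpha-type share was 6.12% to 9.72% in the Casp8-mutant and 3.299% to 6.19% in the Mlkl-null library. The erythroid-like cluster held only 2 Casp8-mutant barcodes and 1 Mlkl-null barcode under 10% globin, with alpha-type shares of 36.7% in the Casp8-mutant and 74.8% in the Mlkl-null library. Among single barcodes under 10% globin with at least 20 globin UMIs, 11 of 508 in the Casp8-mutant and 3 of 168 in the Mlkl-null library had an alpha-type share over 20%, which all dominated barcodes exceeded.

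The members differed in how far they were depleted outside. As shares of globin UMIs, dominated over under 10%, Hba-a1 had a ratio of 5.02 (4.74 to 5.33) in the Casp8-mutant and 5.07 (4.64 to 5.55) in the Mlkl-null library. Hba-a2 had 6.09 (5.65 to 6.56) in the Casp8-mutant and 7.54 (6.68 to 8.54) in the Mlkl-null library. Hba-x stood further apart, with 15.9 (13.7 to 18.52) in the Casp8-mutant and 19.9 (15.5 to 26.0) in the Mlkl-null library. The value for Hba-x rests on few barcodes: without the 12 Casp8-mutant barcodes over 2% globin and the 2 Mlkl-null barcodes over 1%, it was 32.8 (26.3 to 41.3) in the Casp8-mutant and 32.5 (23.6 to 46.2) in the Mlkl-null library. Against all other barcodes, those of 10 to 50% globin included, it was 2.81 (2.66 to 2.96) in the Casp8-mutant and 2.56 (2.37 to 2.76) in the Mlkl-null library, close to the 2.79 and 2.62 of Hba-a2. Under 10% globin the order of the alpha-type genes was the same in both libraries. Hbb-bs ran the other way, with 0.514 (0.506 to 0.523) in the Casp8-mutant and 0.658 (0.646 to 0.670) in the Mlkl-null library. Hbb-bt was closer to 1, with 0.742 (0.717 to 0.768) in the Casp8-mutant and 0.880 (0.840 to 0.922) in the Mlkl-null library.

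The embryonic to adult ratio was lower outside, by how much depending on which barcodes were counted. In all other barcodes there were 3.91 embryonic UMIs per 100 adult UMIs in the Casp8-mutant (3.71 to 4.12) and 3.02 in the Mlkl-null library (2.80 to 3.24). Among alpha-type genes there were 22.6 Hba-x UMIs per 100 adult alpha UMIs in all other barcodes of the Casp8-mutant (21.3 to 23.9) and 23.5 in those of the Mlkl-null library (21.7 to 25.5), nearer to the 26.9 and 26.4 of the dominated barcodes. Under 10% globin there were 0.692 embryonic UMIs per 100 adult UMIs in the Casp8-mutant (0.595 to 0.800) and 0.467 in the Mlkl-null library (0.369 to 0.583). Among alpha-type genes there were 26.9 Hba-x UMIs per 100 adult alpha UMIs in dominated barcodes of the Casp8-mutant library, against 9.21 (7.84 to 10.8) under 10% globin. In the Mlkl-null library there were 26.4 in dominated barcodes, against 7.85 (5.95 to 10.2) under 10% globin. Much of the Hba-x outside lay in few barcodes. The 12 Casp8-mutant barcodes of 2 to 10% globin held 95 of the 175 Hba-x UMIs found under 10%, and 2 Mlkl-null barcodes of 1 to 2% held 24 of 61. Without those barcodes there were 5.19 Hba-x UMIs per 100 adult alpha UMIs in 850 Casp8-mutant barcodes (4.09 to 6.50) and 5.29 in 1417 Mlkl-null barcodes (3.69 to 7.36). The embryonic share of globin UMIs was then 0.348% in the Casp8-mutant (0.279 to 0.429) and 0.325% in the Mlkl-null library (0.244 to 0.424), and the alpha-type share 6.42% in the Casp8-mutant and 4.43% in the Mlkl-null library.

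Up to 80 globin UMIs per barcode, the alpha-type share under 10% globin stayed far below that of the dominated barcodes. In Casp8-mutant barcodes under 10% globin it was 6.64% at 1 to 10 globin UMIs, 5.83% at 11 to 20, 5.90% at 21 to 40 and 6.62% at 41 to 80, and 14.1% in the 47 barcodes above that. In Mlkl-null barcodes it was 4.04% at 1 to 10, 4.42% at 11 to 20, 5.11% at 21 to 40 and 6.18% at 41 to 80, the last from 8 barcodes. The 1 Mlkl-null barcode above that had 119 globin UMIs, of which 89 were alpha-type, a share of 74.8% (66.0 to 82.3). Counted by globin share, the 381 Casp8-mutant barcodes of at most 1% had 6.35% and the 469 of 1 to 2% had 6.48%, while the 12 of 2 to 10% had 30.3%.

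The red cell transcripts Alas2 and Tmcc2 did not follow the alpha-type genes. Per 10000 UMIs of Hbb-bs and Hbb-bt, Alas2 had 29.6 (25.7 to 34.0) in dominated barcodes and 32.6 (25.7 to 40.7) in barcodes under 2% globin of the Casp8-mutant library. In the Mlkl-null library it had 20.6 (17.5 to 24.2) in dominated barcodes and 37.7 (28.8 to 48.5) under 2%. Tmcc2, a gene high in late red cell precursors, had 8.47 (6.43 to 10.9) in dominated barcodes and 15.2 (10.7 to 21.1) under 2% in the Casp8-mutant library, and 9.44 (7.36 to 11.9) and 15.7 (10.2 to 23.2) in the Mlkl-null library. On the same scale Hba-a1 had 4308 in dominated barcodes and 405 under 2% in the Casp8-mutant library, and 2364 against 320 in the Mlkl-null library. Hba-x had 2035 against 33.8 in the Casp8-mutant library and 1109 against 38.3 in the Mlkl-null library. The last value keeps the 2 Mlkl-null barcodes of 1 to 2% globin, which held 24 of its 61 Hba-x UMIs. The 12 Casp8-mutant barcodes above the main peak are left out, so 33.8 and 38.3 are not alike. Relative to adult beta-globin, then, all 3 alpha-type genes were lower under 2% globin with intervals far apart. Alas2 and Tmcc2 were not, and in the Mlkl-null library the interval of Alas2 under 2% lay above that of the dominated barcodes. Under 2% globin Alas2 had only 77 and 60 UMIs and Tmcc2 36 and 25 in the Casp8-mutant and the Mlkl-null library. Other red cell genes varied on this scale. Bpgm went from 16.6 in dominated barcodes to 49.1 under 2% in the Casp8-mutant library, and from 17.3 to 225 in the Mlkl-null library. Whether transcripts of other cell types entered these values was not tested.

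**Figure D5:**
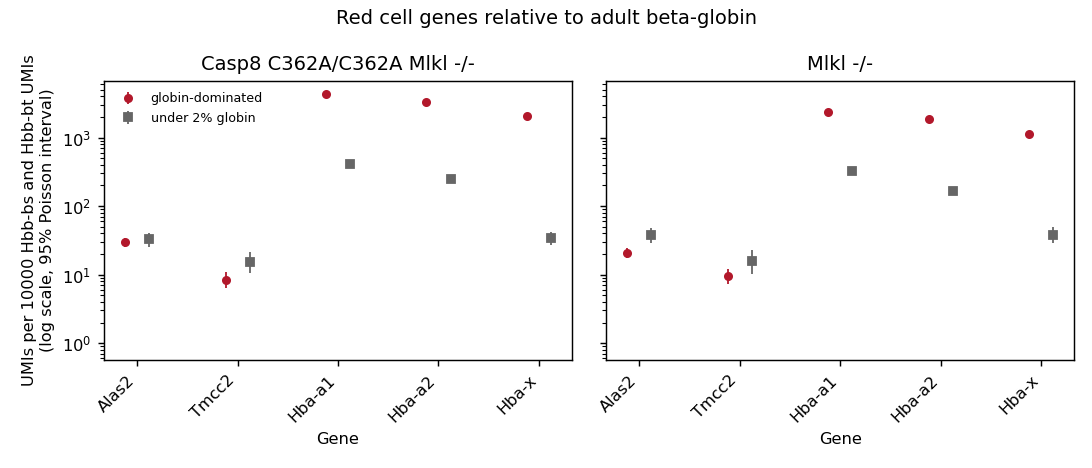
UMIs per 10000 Hbb-bs and Hbb-bt UMIs (vertical axis, log scale, with 95% Poisson intervals of the gene's count) for the red cell genes Alas2 and Tmcc2 and the alpha-type globins, in globin-dominated barcodes (red circles) and barcodes under 2% globin (grey squares) of the Casp8-mutant (left) and Mlkl-null (right) library. The alpha-type genes are lower under 2% globin in both libraries, and Alas2 and Tmcc2 are not.

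Further genes of the globin clusters and their copies had counts in the dominated barcodes. The pseudogene Hba-ps4 on chromosome 17 had 423 UMIs per 10000 globin UMIs in dominated barcodes and 99.8 under 10% globin in the Casp8-mutant library, and 175 and 81.1 in the Mlkl-null library. Hbb-bh3, a pseudogene of the beta cluster, had 85.1 against 4.86 in the Casp8-mutant library and 41.9 against 1.79 in the Mlkl-null library. Hba-ps4 shares 20 of its 418 windows of 30 bases with Hba-a1 and Hba-a2, and Hbb-bh3 shares 0 of 237. Both were more abundant per globin UMI in the Casp8-mutant dominated barcodes, with intervals of 412 to 434 in the Casp8-mutant and 168 to 183 in the Mlkl-null library for Hba-ps4. Hbq1b, a theta-globin gene of the alpha cluster, had 96 and 42 UMIs in the dominated barcodes of the Casp8-mutant and the Mlkl-null library, while myoglobin (Mb) and neuroglobin (Ngb) had 0.

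Of 167 other genes with at least 20 UMIs in the dominated barcodes of each library, the 10 most like the globins were ranked by the smaller of the ratios of dominated to other barcodes in the 2 libraries. Among them were Hbb-bh3, Hbb-bh2, Hba-ps4, Hbq1b, Fam126a, Alas2, Tspo2 and Tmcc2. The ratio of Hbb-bh3 was 614 in the Casp8-mutant and 2394 in the Mlkl-null library, and that of Tmcc2 60.7 and 459. Over 22 sums of a cluster in a library, the genes nearest to Hba-x by Pearson's r of log2 levels were Hba-a1 (0.975), Hba-a2 (0.968), Hba-ps4 (0.962), Hbb-bh3 (0.937) and Hbb-bt (0.903). Those sums share their libraries, and few of them hold most of the Hba-x UMIs.

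Between the libraries, some late maturation genes differed in the dominated barcodes while no haem synthesis gene was called. Of 558 genes with at least 20 UMIs over the dominated barcodes of both libraries, 14.5% were at least 1.5-fold higher and 14.7% at least 1.5-fold lower in the Casp8-mutant library. None of 6 haem synthesis genes and none of 4 membrane genes was called in either direction. Among late maturation genes, 2 of 15 were higher in the Casp8-mutant library, Blvrb and the catalase gene Cat, and 5 were lower, Bpgm, Bnip3l, Mkrn1, Tmcc2 and Ube2o. Per 1 M UMIs of other genes, Blvrb was at 1902.5 in the Casp8-mutant and 875 in the Mlkl-null library, a ratio of 2.17 (1.40 to 3.47). Bpgm was at 2357 in the Casp8-mutant and 4150 in the Mlkl-null library, a ratio of 0.568 (0.437 to 0.737). Genotype and library preparation cannot be told apart in any of these differences.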

How the data were processed

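The authors deposited raw counts, whole numbers of UMIs for each Ensembl gene ID in each barcode. Per the submitters' processing notes the tools were Cell Ranger 3.0.2 and Seurat 3.0 with the mm10 genome. For the role of each tool, the barcode filter and the strand rule, the sources used here state nothing. All deposited barcodes were used, with no doublet caller and no gene minimum. Symbols were matched for 52403 of 52636 IDs through a supplied table of Ensembl IDs and symbols; coordinates and transcripts are from GENCODE M21. UMIs were summed over classes of barcodes per library, in Python 3.11.15 with numpy 2.4.6, scipy 1.17.1 and pandas 2.3.3. Shares have Clopper-Pearson, levels Poisson and ratios conditional exact intervals at 95%. These steps were tested on simulated data. Barcodes outside the dominated class were clustered without globins in scanpy 1.11.5 (30 components, 15 neighbours, Leiden resolution 1, seed 0). A cluster was named "-like" from at least 3 usable markers with a mean relative level of 25% or more, a rule revised after the clusters were seen. The 7 members are always named, any gene of the fixed lists may be named beside its list's counts, and 10 genes most like the globins and 5 most like Hba-x are named by rank. Members, lists and tests were chosen with earlier results of these data known. For genes other than the 7 globins, levels within dominated barcodes are per 1 M UMIs of other genes. Ratios for likeness to the globins added 0.5 UMI, and log2 levels for likeness to Hba-x added 50 CPM. Thinning drew UMIs without replacement with a fixed seed. No paired or replicate analysis exists, since each genotype has 1 library. Some genes that these rules would name are not reported here.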

Additional observations from a re-analysis of the deposited data

How the results depend on the processing

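No paired analysis was possible because each genotype has 1 library, and for the same reason no library could be left out. Of the recomputed values 16 stayed within the counting interval, 46 moved beyond it and 1 changed direction, the share of dominated barcodes, whose ratio of Casp8-mutant to Mlkl-null was 3.45, 2.16 with dominated set at over 80% globin and 0.235 (0.0259 to 1.02) among barcodes with at least 500 genes. As reported, alpha-type shares outside were 20.1% in the Casp8-mutant and 14.9% in the Mlkl-null library, and embryonic shares 3.77% in the Casp8-mutant and 2.93% in the Mlkl-null library. Where more than the barcodes or genes counted changed, the cause was not tested. With dominated set at over 20% globin, the alpha-type share inside was 48.6% in the Casp8-mutant library, and outside it was 11.2% in the Casp8-mutant and 8.10% in the Mlkl-null library, with embryonic shares of 1.45% in the Casp8-mutant and 1.21% in the Mlkl-null library and a level ratio of 3.74. At over 80%, dominated barcodes were 4.24% in the Casp8-mutant and 1.96% in the Mlkl-null library. Inside, the Mlkl-null embryonic share was 6.97% and its alpha-type share 33.1%. Outside, embryonic shares were 8.30% in the Casp8-mutant and 6.11% in the Mlkl-null library, alpha-type shares 39.3% in the Casp8-mutant and 28.9% in the Mlkl-null library, and the level ratio 3.82. With at least 500 genes, dominated barcodes were 0.229% in the Casp8-mutant and 0.973% in the Mlkl-null library, embryonic shares inside 8.79% in the Casp8-mutant and 7.72% in the Mlkl-null library, and alpha-type shares 37.9% in the Casp8-mutant and 36.2% in the Mlkl-null library. Outside in the Casp8-mutant library the embryonic share was then 3.48% and the alpha-type share 18.9%, and the level ratio 3.46. Under 10% globin, embryonic shares outside were 0.687% in the Casp8-mutant and 0.465% in the Mlkl-null library, alpha-type shares 7.75% in the Casp8-mutant and 4.995% in the Mlkl-null library, and the ratio 3.79. Without the 12 Casp8-mutant and 2 Mlkl-null barcodes above the main peak, embryonic shares outside were 0.348% in the Casp8-mutant and 0.325% in the Mlkl-null library, and alpha-type shares 6.42% in the Casp8-mutant and 4.43% in the Mlkl-null library. The level ratio was 2.48 per barcode, 2.09 between medians, 3.74 on a median of ratios scale, 4.40 after thinning to 1000 UMIs and 3.56 in epithelial-like clusters. Mlkl-null barcodes with a globin UMI were 99.9% without thinning and 99.7% at 2000 UMIs. Beta-type genes alone gave embryonic shares of 0.266% in the Casp8-mutant and 0.179% in the Mlkl-null library. Counting Hba-ps4 and Hbb-bh3 gave alpha-type shares of 50.6% in the Casp8-mutant and 35.6% in the Mlkl-null library. At a clustering resolution of 0.5 the Mlkl-null epithelial-like level was 3241 CPM, against 3097 CPM at 1. No cluster was named erythroid-like at 0.5. The ratio of medians, the ratio under 10% globin, the bins by globin share, the main peak, the pseudogenes and the setting without the 2 barcodes high in Hbb-y (embryonic share 7.28%) were chosen after seeing the data. Under 10% globin Hbb-y and Hbb-bh1 had at most 11 UMIs per library, which limits their ratios.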
